A study of Mus musculus with 12 samples.

Results

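The 34 genes described here encode collagens, matrix proteins, transporters and transcription factors of fibroblasts in the meninges, the membranes that cover the brain. They were chosen by name, as a set that had stood out in the contrast between unstressed and stressed wild-type mice. All 34 were found among the 24411 gene symbols of the count table, and all 34 passed the filter on low counts that left 15199 genes to test. Because that contrast chose them, its values are given as a description without a test, and the question asked of it is how far 2 of its libraries carry it. The genes are located in the mouse genome build GRCm38, named mm10 in the labels.

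RNA was taken from the medial prefrontal cortex (mPFC) of adult female C57BL/6J mice aged 8 to 12 weeks. The 4 groups were wild type (WT) without stress, WT with chronic stress, Cav3.1 knockout (KO) without stress and Cav3.1 KO with chronic stress, with 3 libraries each. Cav3.1 is the T-type calcium channel encoded by Cacna1g, and the labels name no promoter or cell type to which its knockout is restricted. Chronic stress was a daily forced swim or tail suspension over 5 days. WT mice were bought from a breeder (Clea Japan) and KO mice came from the RIKEN BioResource Research Center, so genotype and colony cannot be told apart. Nothing in the labels states that the 3 libraries of a group are 3 animals, so a p-value here reflects the spread between libraries, which may be technical.

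Fibroblasts of the meninges secrete the fibrillar collagens, proteoglycans and basement membrane partners that make up the pia, arachnoid and dura. They also release retinoic acid and growth factors, and carry transporters that move organic anions and small solutes across the barrier between brain and cerebrospinal fluid. The forkhead factors Foxc1 and Foxc2 act in the development of these membranes. A few fibroblasts also lie around the larger vessels inside the cortex, and some collagen chains are made by other cells of the brain. Bulk tissue RNA does not separate these sources, and fewer cells of a type and less RNA per cell cannot be told apart in it.

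RefSeq promoter sequences on GRCm38.p6, 300 bases long and spanning a start site, were found for 26 of the 34 genes, with 34 promoters in all. Since most of the genes varied together between libraries, 3 promoters of genes that did so are shown first and 1 of a gene that did not comes last. Each is 5′ to 3′ on the gene's own strand. Capitals mark CCAAT, or ATTGG as its reverse complement, and TATAAA, or TTTATA as its reverse complement. Col1a2 lies at chr6:4505368-4505667 on the plus strand and encodes a chain of type I collagen. Slc13a4 lies at chr6:35308077-35308376 on the minus strand and encodes a sodium-coupled sulfate transporter. Ogn lies at chr13:49607765-49608064 on the plus strand and encodes osteoglycin, a small leucine-rich proteoglycan. Col6a1 lies at chr10:76725995-76726294 on the minus strand and encodes a chain of collagen VI.
Col1a2: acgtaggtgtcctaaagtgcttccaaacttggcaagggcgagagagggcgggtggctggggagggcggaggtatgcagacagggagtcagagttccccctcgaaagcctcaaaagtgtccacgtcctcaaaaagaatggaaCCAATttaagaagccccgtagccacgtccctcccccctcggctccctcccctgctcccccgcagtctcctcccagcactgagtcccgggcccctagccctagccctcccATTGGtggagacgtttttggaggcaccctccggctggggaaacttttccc
Slc13a4: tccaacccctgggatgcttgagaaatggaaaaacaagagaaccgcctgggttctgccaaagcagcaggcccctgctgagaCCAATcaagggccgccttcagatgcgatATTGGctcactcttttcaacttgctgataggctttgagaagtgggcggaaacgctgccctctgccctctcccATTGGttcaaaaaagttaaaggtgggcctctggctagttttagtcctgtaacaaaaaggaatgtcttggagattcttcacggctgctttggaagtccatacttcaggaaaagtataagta
Ogn: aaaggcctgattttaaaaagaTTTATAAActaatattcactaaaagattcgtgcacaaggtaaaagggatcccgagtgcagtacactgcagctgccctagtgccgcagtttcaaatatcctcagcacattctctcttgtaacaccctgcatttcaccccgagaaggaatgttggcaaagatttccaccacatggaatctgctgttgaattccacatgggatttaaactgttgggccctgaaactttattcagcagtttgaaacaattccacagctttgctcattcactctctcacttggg
Col6a1: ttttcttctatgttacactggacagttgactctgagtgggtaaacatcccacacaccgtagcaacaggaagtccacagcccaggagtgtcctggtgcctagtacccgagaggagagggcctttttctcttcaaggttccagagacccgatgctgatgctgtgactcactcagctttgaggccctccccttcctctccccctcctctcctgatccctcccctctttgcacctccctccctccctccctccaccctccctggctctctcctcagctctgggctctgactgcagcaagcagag
The Col1a2 promoter held 2 CCAAT matches and that of Slc13a4 held 3, while those of Ogn and Col6a1 held 0. The Ogn promoter held 2 TATAAA matches, 1 on each strand, which overlap in the run TTTATAAA. Over the set, CCAAT on either strand was in 10 of 34 promoters (29.4%), against 37.4% of all 32851 promoters in the table. TATAAA was in 2 of 34 (5.88%), against 13.6% of all. A match is a description of the letters and not a binding site, and the 3 genes that varied together did not share these letters.

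Estimated counts summed to between 15469590 and 31082240 per library. Levels are given in CPM, read counts scaled to library size with TMM factors. Cacna1g, the targeted gene, lay between 109.4 and 144.1 CPM in the 6 WT libraries and between 54.62 and 65.95 CPM in the 6 KO libraries. Unstressed WT libraries 1 and 2 stood apart from the other 10 in markers of tissue: Slc17a7, the vesicular glutamate transporter of cortical excitatory neurons, was at 1206 and 1384 CPM in them and at 1740 to 2066 CPM in the others. Cdhr1, a cadherin of olfactory bulb projection neurons, was at 422.9 and 426.8 CPM in these libraries, 48.88 CPM in unstressed WT library 3 and 7.61 to 59.48 CPM in the remaining 9. Fold changes and called counts that rest on unstressed WT libraries are therefore given with and without libraries 1 and 2.

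The set was highest in these same libraries. Its score takes log2 CPM centred on the gene's own mean in all 12 libraries and averages it over the genes. Unstressed WT libraries 1 to 3 scored 1.45, 1.71 and 0.34. Stressed WT libraries scored -0.88, -0.94 and -0.10, KO libraries without stress -0.12, 0.01 and -0.82, and stressed KO libraries -0.96, 0.18 and 0.14. Unstressed WT library 3 lay closer to the highest KO libraries than to libraries 1 and 2. Libraries 1 and 2 were the 2 highest of the 12 for 31 of the 34 genes, and the exceptions were Col5a1, Col6a1 and Col6a2. No share over all genes tested is given for this order, so the count is a description.

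**Figure D1:**
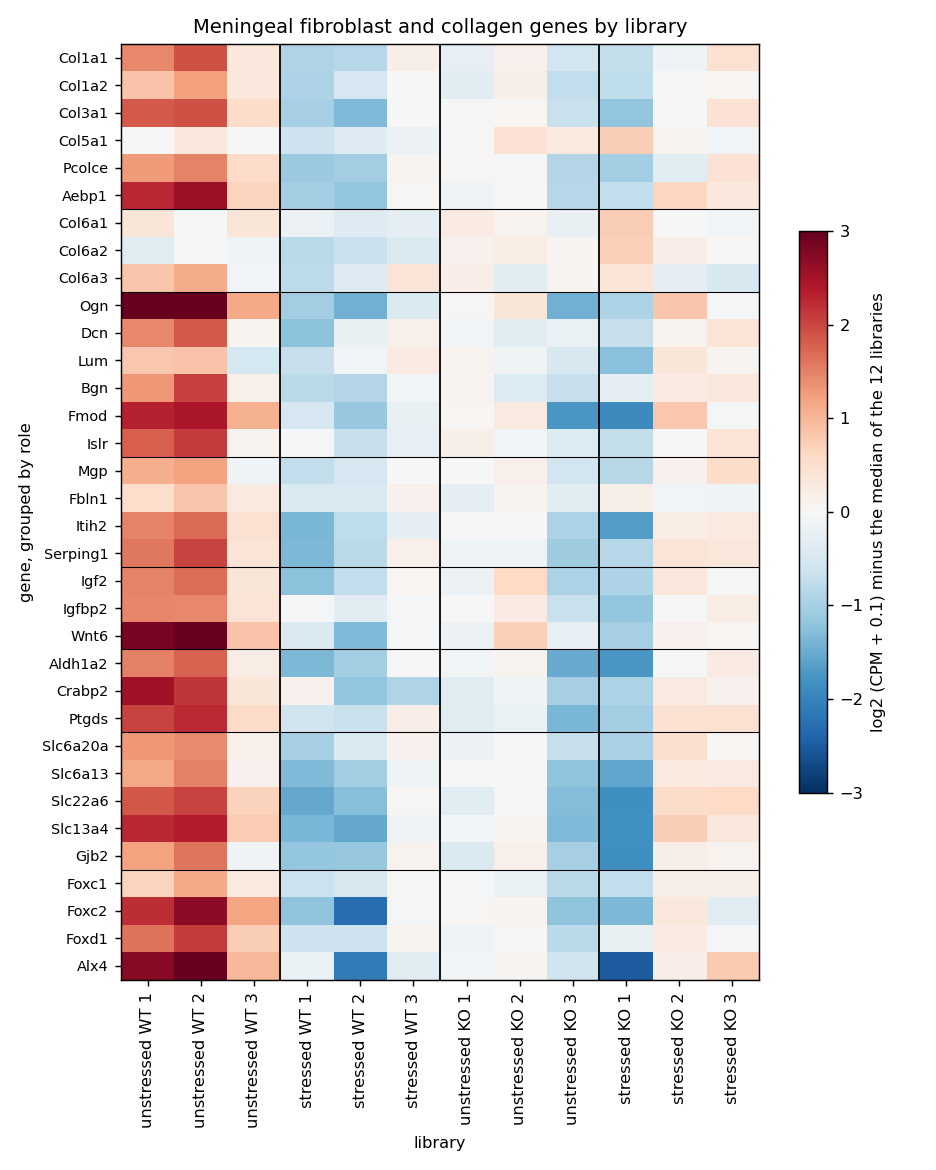
Log2 CPM, with a small constant added, of the 34 genes (rows, grouped by role) in the 12 libraries (columns, by group). Each is centred on the gene's median over the libraries. Unstressed WT libraries 1 and 2 hold the 2 highest values in 31 of 34 rows, and the rows of Col5a1, Col6a1 and Col6a2 do not follow that order.

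Compared per exonic length, the genes spanned a wide range of levels. Ptgds, the prostaglandin D synthase made by arachnoid and other brain cells, was the most abundant in each group, with mean levels of 392, 93.4, 77.8 and 123 RPKM (CPM per kilobase) in WT without stress, WT with stress, KO without stress and KO with stress. Igfbp2, which binds insulin-like growth factors, had mean levels of 33.5, 13.3, 13.8 and 12.7 RPKM in that order of groups. Col6a1, at 29.1, 20.2, 25.5 and 29.6 RPKM, was below Igfbp2 in unstressed WT and above it in the other 3 groups. Col6a3, the third chain of collagen VI, was at 0.267, 0.142, 0.16 and 0.152 RPKM, the lowest of the 34 in unstressed WT and in stressed KO.

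Among the fibrillar collagens, Col3a1 (chromosome 1, 45311538 to 45349706, plus strand), the chain of type III collagen, was at 8.16, 8.59 and 3.28 CPM in unstressed WT, and at 1.05, 0.814 and 2.18 CPM in stressed WT. In KO it was at 2.14, 2.28 and 1.35 CPM without stress and at 0.905, 2.22 and 3.01 CPM with stress. All 3 unstressed WT values lay above the 9 others, but library 3 was closer to the highest of those than to libraries 1 and 2. The same held for Col1a2, a chain of type I collagen, at 27.2, 35.0 and 18.6 CPM in unstressed WT and at most 16.9 CPM in the 9 others. Col1a1 (chromosome 11, 94936224 to 94953042, plus strand), the other chain, was at 13.9, 19.1 and 6.33 CPM in unstressed WT, 2.65, 2.74 and 5.73 CPM in stressed WT, 4.23, 5.48 and 3.39 CPM in KO, and 3.03, 4.63 and 6.98 CPM in stressed KO. For Col1a1, library 3 thus lay below 1 stressed KO library and just above the highest stressed WT library. Pcolce, an enhancer of procollagen cleavage, and Aebp1, which binds fibrillar collagen, had group means of 7.40 ± 2.26 and 30.4 ± 16.6 CPM (SD, n = 3) in unstressed WT. Col5a1 (chromosome 2, 27886425 to 28039514, plus strand), a chain of type V collagen, behaved differently, with 23.4, 28.8 and 22.9 CPM in unstressed WT, 15.0, 17.8 and 20.5 CPM in stressed WT, 22.8, 31.5 and 28.4 CPM in KO, and 38.7, 24.4 and 22.0 CPM in stressed KO. Its highest value was in stressed KO library 1, and the KO libraries overlapped the unstressed WT ones.

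The collagen VI chains Col6a1 and Col6a2 were also highest in stressed KO library 1. Col6a1 (chromosome 10, 76708792 to 76726168, minus strand) was at 138.1, 107.1 and 137.7 CPM in unstressed WT and 95.7, 82.1 and 87.1 CPM in stressed WT. It was at 127.8, 114.9 and 92.0 CPM in KO and 178.8, 107.9 and 101.7 CPM in stressed KO. Col6a2 (chromosome 10, 76595762 to 76623630, minus strand) was at 14.2, 17.7 and 16.5 CPM in unstressed WT, 10.3, 11.4 and 13.5 CPM in stressed WT, 19.8, 21.1 and 19.1 CPM in KO, and 30.2, 20.9 and 18.7 CPM in stressed KO. The stressed WT libraries were the 3 lowest of the 12 for Col6a2, and all 6 KO libraries lay above all 6 WT libraries. Col6a3 was at 3.51, 4.26 and 1.82 CPM in unstressed WT, and 1.09, 1.46 and 2.56 CPM in stressed WT, where library 3 of the stressed group exceeded library 3 of the unstressed one.

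The small leucine-rich proteoglycans, which bind collagen fibrils, held the gene with the lowest log2 fold change for stress in WT. Ogn (chromosome 13, 49608046 to 49624501, plus strand) was at 22.6, 24.6 and 6.16 CPM in unstressed WT, 1.29, 0.942 and 2.01 CPM in stressed WT, 2.78, 3.56 and 0.946 CPM in KO, and 1.358, 4.966 and 2.69 CPM in stressed KO. Unstressed WT library 3 was above the libraries of the other groups, the highest of which was stressed KO library 2. Fmod (fibromodulin) was at 43.9, 48.4 and 18.5 CPM in unstressed WT, 6.15, 3.94 and 7.54 CPM in stressed WT, 9.23, 10.5 and 2.54 CPM in KO, and 2.26, 15.5 and 8.39 CPM in stressed KO. Bgn (biglycan) had group means of 27.1 ± 16.1, 7.12 ± 2.32, 8.44 ± 2.41 and 11.4 ± 2.54 CPM (SD, n = 3) in unstressed WT, stressed WT, KO and stressed KO. Dcn (decorin) was at 17.1, 22.5 and 6.56 CPM in unstressed WT and 2.61, 5.31 and 6.89 CPM in stressed WT, so that library 3 lay inside the stressed range. Lum (lumican) was at 2.96, 3.04 and 1.09 CPM in unstressed WT and 0.965, 1.54 and 1.95 CPM in stressed WT, again with library 3 inside. Islr, a leucine-rich secreted protein, was at 54.3, 66.2 and 16.7 CPM in unstressed WT and 15.0, 9.59 and 13.04 CPM in stressed WT.

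The other secreted proteins were Mgp (matrix Gla protein, an inhibitor of calcification), Fbln1 (the matrix glycoprotein fibulin-1), Itih2 (a chain of an inhibitor that binds hyaluronan) and Serping1 (the C1 inhibitor of complement). Mgp was at 14.7, 15.9 and 6.29 CPM in unstressed WT and 4.10, 4.84 and 6.89 CPM in stressed WT, with library 3 inside the stressed range. Serping1 was at 10.2, 13.9 and 4.47 CPM in unstressed WT and 1.25, 1.88 and 3.72 CPM in stressed WT, and Itih2 was at 11.2, 12.9 and 5.398 CPM against 1.45, 2.27 and 3.24 CPM. Fbln1 was at 12.2, 15.1 and 10.3 CPM against 6.07, 6.12 and 9.14 CPM.

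Igf2, an insulin-like growth factor that the meninges release, spans chromosome 7, 142650766 to 142666816, minus strand. It was at 107.2, 122.9 and 49.6 CPM in unstressed WT, 16.3, 22.8 and 40.1 CPM in stressed WT, 33.8, 58.1 and 19.9 CPM in KO, and 20.0, 48.5 and 36.8 CPM in stressed KO. Library 3 of unstressed WT was below KO library 2 for Igf2. Wnt6, a secreted Wnt ligand, was at 6.26, 7.79 and 1.52 CPM in unstressed WT and between 0.257 and 1.37 CPM in the other 9 libraries. Igfbp2 was at 74.9, 74.4 and 36.3 CPM in unstressed WT and 25.9, 21.8 and 26.2 CPM in stressed WT.

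Genes of retinoid and prostaglandin handling were also highest in unstressed WT libraries 1 and 2. Aldh1a2, which makes retinoic acid, was at 17.9, 21.4 and 7.25 CPM in unstressed WT, 2.37, 2.95 and 6.18 CPM in stressed WT, 5.83, 6.62 and 2.09 CPM in KO, and 1.78, 6.17 and 7.30 CPM in stressed KO. Crabp2, which carries retinoic acid in the cell, was at 6.78, 5.21 and 1.46 CPM in unstressed WT and between 0.428 and 1.35 CPM in the other 9 libraries. Ptgds (chromosome 2, 25466709 to 25470046, minus strand) was at 766.5, 889.4 and 281.2 CPM in unstressed WT and 124.6, 118.6 and 218.8 CPM in stressed WT. It was at 148.0, 163.4 and 73.2 CPM in KO and 92.2, 260.2 and 257.6 CPM in stressed KO, so that unstressed WT library 3 stood next to stressed KO libraries 2 and 3.

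The transporters and the gap junction gene ordered the libraries much as the matrix genes did. Slc13a4 (chromosome 6, 35267957 to 35308131, minus strand) was at 22.1, 23.5 and 7.72 CPM in unstressed WT, 1.69, 1.499 and 4.23 CPM in stressed WT, 4.27, 4.84 and 1.74 CPM in KO, and 1.22, 7.67 and 5.83 CPM in stressed KO. Its value in unstressed WT library 3 was nearly that of stressed KO library 2. Slc22a6, an organic anion transporter, was at 17.1, 18.9 and 7.52 CPM in unstressed WT and 1.53, 1.84 and 4.68 CPM in stressed WT. Slc6a13, a transporter of GABA and taurine, was at 22.1, 28.3 and 10.7 CPM against 3.90, 4.75 and 9.01 CPM, and Slc6a20a, a transporter of proline-like amino acids, at 20.0, 21.6 and 8.97 CPM against 3.94, 5.78 and 8.84 CPM. Gjb2, the gap junction protein connexin 26, was at 18.7, 24.4 and 7.42 CPM in unstressed WT and 3.50, 3.60 and 8.57 CPM in stressed WT, with library 3 inside the stressed range.

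The 4 transcription factors included the gene with the fewest counts. Foxc2 (chromosome 8, 121116171 to 121118895, plus strand) was at 3.13, 4.35 and 1.49 CPM in unstressed WT, 0.201, 0.0428 and 0.580 CPM in stressed WT, 0.610, 0.639 and 0.199 CPM in KO, and 0.174, 0.771 and 0.448 CPM in stressed KO. The value in stressed WT library 2 was 1 count, the only one in the set under 3 counts. Alx4, a homeobox factor of craniofacial and skull development, was at 8.84, 16.7 and 2.58 CPM in unstressed WT and between 0.139 and 2.24 CPM in the other 9 libraries. Foxd1 was at 3.65, 5.12 and 1.92 CPM in unstressed WT and 0.684, 0.685 and 1.19 CPM in stressed WT, and Foxc1 at 8.77, 12.1 and 6.69 CPM against 3.46, 3.90 and 5.56 CPM. For these 4 genes unstressed WT library 3 lay above every library of the other groups, by a margin smaller than its distance to library 2.

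**Figure D2:**
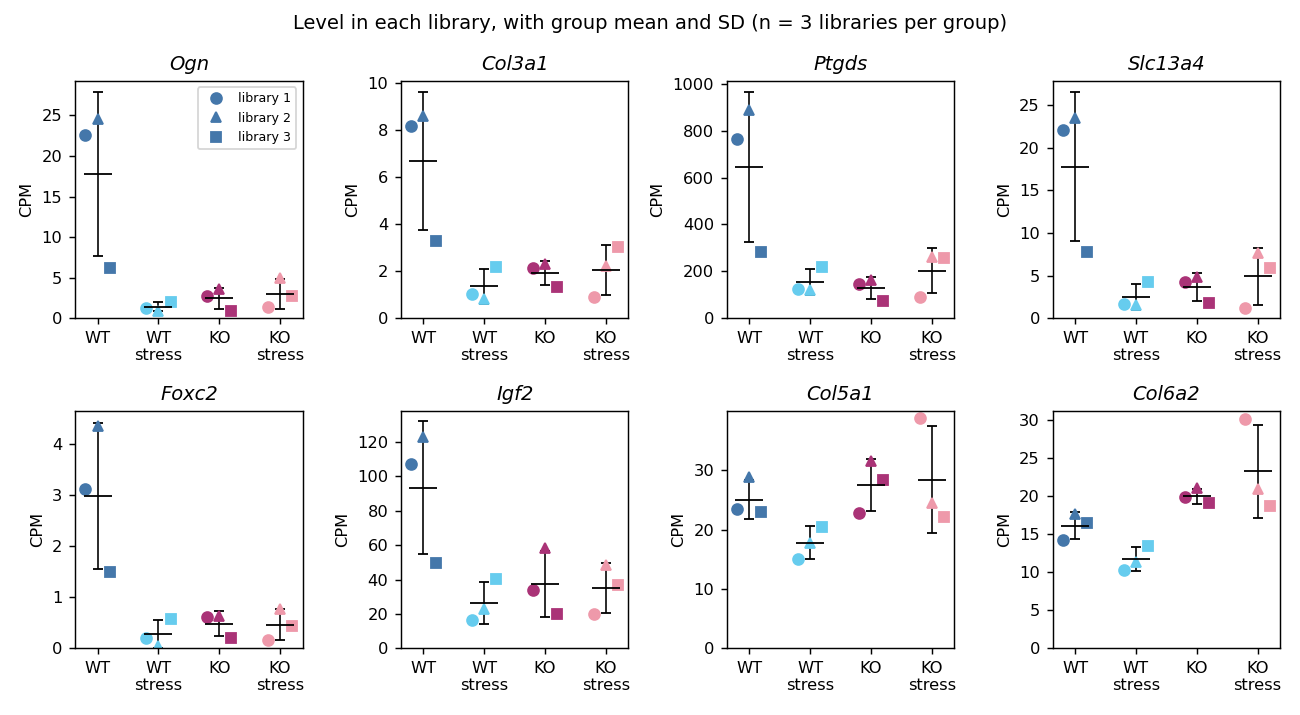
Level in CPM of 8 genes in each library of the 4 groups, with the group mean (horizontal line) and SD (vertical line, n = 3). In Ogn, Col3a1, Ptgds, Slc13a4, Foxc2 and Igf2 the unstressed WT points split into 2 high libraries and 1 nearer the other groups, whereas Col5a1 and Col6a2 show no such split.

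Over all 34 genes, stressed minus unstressed WT gave log2 fold changes between -3.63 (Ogn) and -0.46 (Col6a2), with a median of -1.84, against a median of 0.00 over the 15199 genes tested. Of the 34, 29 were called lower with edgeR, in a comparison in which 12.1% of all genes tested were called lower, and the same number, 29, did not overlap between the groups (17.2% of all). Since this contrast chose the genes, nothing is read from these counts. On the log2 scale all 34 lay below 0, as did 49.7% of all genes tested. The 5 genes not called were Col5a1, Col6a1, Col6a2, Col6a3 and Lum.

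With unstressed WT library 3 as the only unstressed WT library, the median became -0.86, with a range from -2.35 (Foxc2) to 0.45 (Lum). With library 1 alone it was -1.97 and with library 2 alone -2.36. Library 3 alone left 33 of 34 genes below 0 but 0 of 34 called by edgeR, in a fit that called 0 of 15477 genes. With library 1 alone or library 2 alone, 34 of 34 genes were below 0. These libraries were the highest for most of the set, so nothing is read from that. A single library stands for its group in these fits and is assumed to vary like the others. The loss of calls was not particular to leaving out libraries 1 and 2 together. Without unstressed WT library 2 alone, or without stressed WT library 2 alone, 0 of the 34 and 0 of all genes were called. Leaving out another 1 of the 6 WT libraries left between 12 and 30 of the 34 called. Those fits called between 967 and 5635 of all genes.

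How much of the difference was left with library 3 varied between roles and within them, and a link to role was not tested. Among the proteoglycans, Fmod went from -2.642 with all 3 libraries to -1.645 with library 3 alone, and Lum from -0.663 to 0.447. The median log2 fold change of the 6 proteoglycans and Islr went from -1.90 with all 3 libraries to -0.56 with library 3 alone, and that of the 4 transcription factors from -2.70 to -1.44. The 6 fibrillar collagens and their processing genes went from -1.79 to -0.97, the 5 transporters and gap junction gene from -1.78 to -0.85, and the 3 retinoid and prostaglandin genes from -2.07 to -0.91. The 4 other secreted proteins went from -1.63 to -0.74 and the 3 growth factors and binding protein from -1.82 to -0.91. The 3 collagen VI chains stayed at -0.53 and -0.49.

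Single genes showed the same spread. The log2 fold change of Ogn was -3.63 ± 0.62 (SE) with all 3 libraries and -2.10 ± 0.62 with library 3 alone. Islr went from -1.87 to -0.42, Dcn from -1.63 to -0.40 and Mgp from -1.22 to -0.25. By contrast Col6a1 was at -0.53 and -0.64, Col6a2 at -0.46 and -0.49 and Col5a1 at -0.49 and -0.37. In CPM, the difference between the group means left with library 3 was a median of 30.8% of that with all 3 libraries (range -44.5% to 126%).

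**Figure D3:**
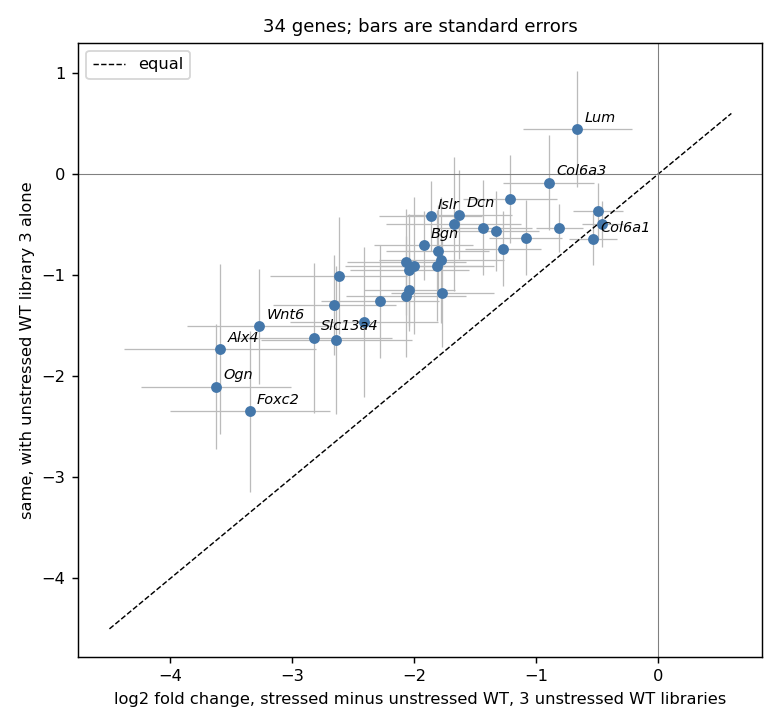
Log2 fold change of stressed minus unstressed WT for each of the 34 genes, with all 3 unstressed WT libraries (horizontal axis) and with library 3 as the only one (vertical axis). Most genes lie above the line of equal values, as the median moved from -1.84 to -0.86, while the collagen VI chains Col6a1 and Col6a2 lie near it.

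The ratio of the mean of libraries 1 and 2 to library 3 had a median of 2.5 over the 34 genes (range 0.89 to 4.95), against a median of 1.01 over all genes tested. Library 3 over the mean of the stressed WT libraries had a median ratio of 1.82 (range 0.736 to 5.43), against 0.997 over all. Library 1 over library 2 had a median ratio of 0.822. Library 3 remained above all 3 stressed WT libraries for 29 of the 34 genes and above all 9 libraries of the other groups for 18. It was the next highest after libraries 1 and 2 for 18 genes. The 5 genes for which it was not above all stressed WT libraries were Col6a3, Dcn, Lum, Mgp and Gjb2. No share over all genes tested is given for these counts, and a contrast of these groups chose the genes. The counts describe the order of libraries only.

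The contrast of unstressed KO with unstressed WT shares the unstressed WT libraries and is also given without a test. Its median was -1.58 with a range from -3.08 to 0.31, with 32 of 34 genes below 0 (49.4% of all genes tested). It called 25 of the genes lower, where 12.1% of all genes tested were called lower. The choice of genes leaned on the same unstressed WT libraries, so nothing is read from this count. With library 3 alone the median was -0.57 with 29 of 34 genes below 0, and 0 of 34 genes were called, in a fit that called 18 of all genes. With library 1 alone the median was -1.68 and with library 2 alone -2.08. Col6a2 (0.31) and Col5a1 (0.14) were the 2 genes above 0 with all 3 libraries.

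In KO mice, where no library entered the choice of genes, stress did not move the set past the threshold. Of the 34 genes, 0 were called by edgeR, against 0.0197% of all genes tested, or 3 genes, and DESeq2 called 0 of the 34 as well. At an unadjusted p under 0.05 the count was also 0 of 34, where 9.2% of all genes tested passed, and 0 of 34 had groups that did not overlap, against 16.9% of all. The log2 fold changes, stressed minus unstressed KO, ran from -0.46 ± 0.67 (SE) in Wnt6 to 0.66 ± 0.48 in Ptgds, with a median of 0.14 and 28 of 34 above 0 (49.1% of all). The median over all genes was 0.00. The edgeR adjusted p lay between 0.693 (Ptgds) and 0.998 (Pcolce). For Ogn the log2 fold change was 0.27 ± 0.62 and for Col3a1 0.03 ± 0.51, with edgeR adjusted p of 0.927 and 0.994. The standard errors of these genes are large beside the values, and a p that misses the threshold does not show that the levels were equal. Stressed KO library 1 scored -0.96, against 0.18 and 0.14 in stressed KO libraries 2 and 3, and was the lowest of its group for 29 of 34 genes. It also had a striatal marker score of 2.15, and the part of this in the KO values was not tested. Leaving out any 1 of the 6 KO libraries left 0 of 34 called.

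The stressed groups were compared between genotypes, a contrast that shares the stressed WT libraries with the one that chose the genes. Genes chosen for low values in those libraries lean towards higher values in KO here, so the p-values are not independent of the choice and nothing is read from the direction of the set. Of the 34 genes, 1 was called by edgeR and it was higher in KO, in a comparison in which 0.25% of all genes tested were called in either direction and 0.0855% as higher. That gene was Col6a2, a chain of collagen VI, at 11.7 ± 1.62 CPM in stressed WT and 23.2 ± 6.08 CPM in stressed KO (SD, n = 3). Its 3 stressed KO values, 30.2, 20.9 and 18.7 CPM, lay above the 3 stressed WT values of 10.3, 11.4 and 13.5 CPM. The log2 fold change was 0.99 ± 0.17 (SE), with an edgeR adjusted p of 0.0355. The call was lost on leaving out any 1 of the 6 libraries other than stressed KO library 3, with an edgeR adjusted p of 0.0606 to 0.188 and a log2 fold change of 0.75 to 1.11. Without stressed KO library 3 the edgeR adjusted p was 0.0235. Without stressed KO library 1, the highest, the log2 fold change was 0.75 and the edgeR adjusted p 0.0626. Stressed KO library 1 also had the highest score of the list of striatal projection neuron markers, 2.15 where the other 11 lay between -0.41 and 0.12, and the part of this in the result was not tested. Unstressed KO libraries had 19.8, 21.1 and 19.1 CPM and unstressed WT 14.2, 17.7 and 16.5 CPM, so that the KO groups lay above the WT groups of Col6a2 also without stress.

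At an unadjusted p under 0.05, 3 of the 34 genes were higher in stressed KO than in stressed WT, which are Col6a2, Col5a1 and Col6a1, against 6.55% of all genes tested. The same 3 had groups that did not overlap, with KO higher (10.8% of all), and all 3 are collagen chains that were not highest in unstressed WT libraries 1 and 2. Col5a1 had a log2 fold change of 0.68 ± 0.20 (edgeR adjusted p 0.197) and Col6a1 one of 0.56 ± 0.20 (edgeR adjusted p 0.267). Ogn had 1.04 ± 0.65 (edgeR adjusted p 0.534), with a larger error. Over the set 32 of 34 were above 0 (49.3% of all genes tested), with a median of 0.40, against a median over all genes of 0.00.

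**Figure D4:**
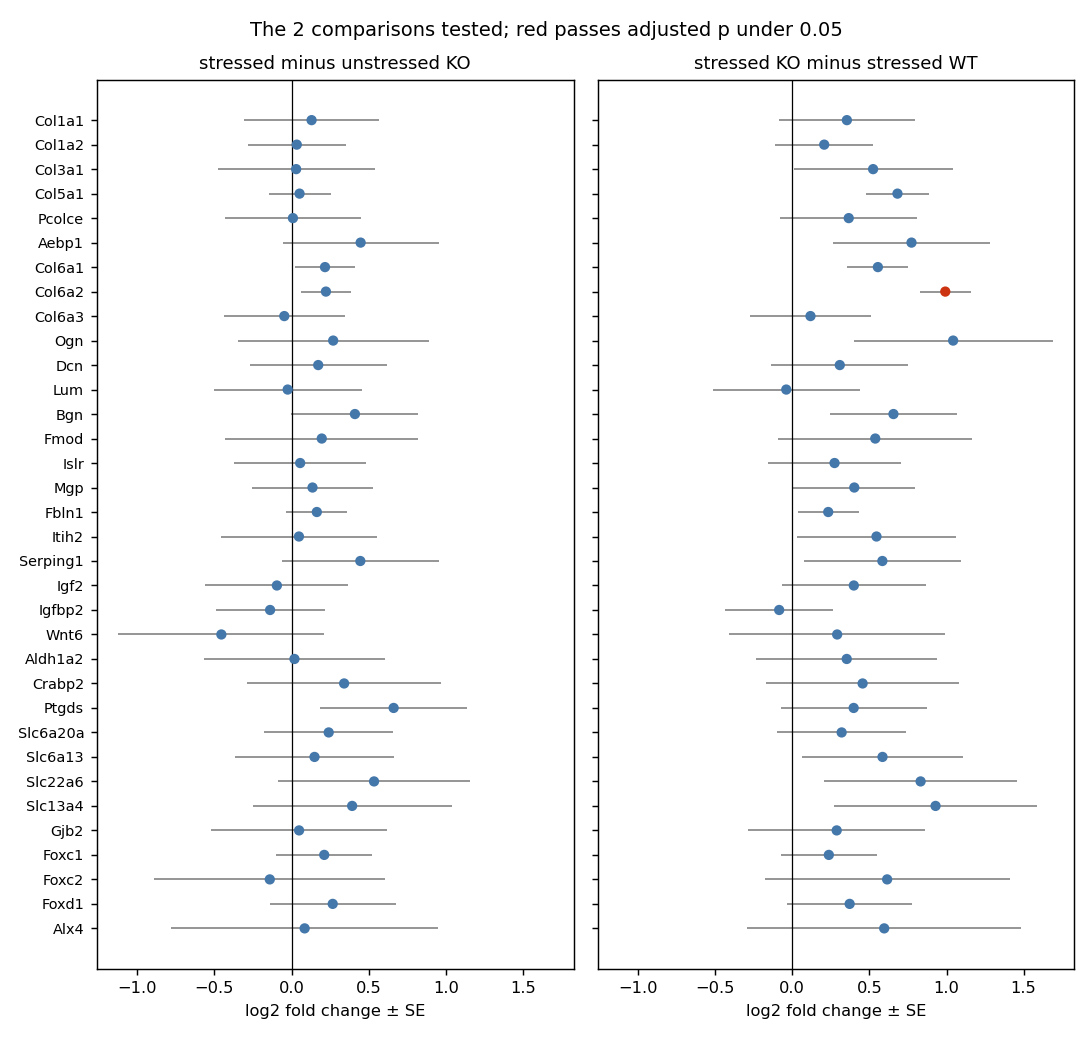
Log2 fold change with its standard error (horizontal axis) for each of the 34 genes in stressed minus unstressed KO and in stressed KO minus stressed WT. Col6a2, drawn in red, is the 1 gene past the threshold in the second comparison (0.99 ± 0.17), and 0 passed in the first.

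Across the 10 libraries other than unstressed WT 1 and 2, most genes varied together. The correlation of a gene's log2 CPM with the mean of the other 33 had a median of 0.899 over 10 libraries, from -0.04 for Col6a3 to 0.991 for Slc13a4. The lowest after Col6a3 were Col5a1 (0.012), Col6a1 (0.103), Col6a2 (0.162), Fbln1 (0.547) and Lum (0.572). The values of a library share its depth, scaling and tissue composition, which differed between libraries, and the correlations are a description without a test. Within groups the score spanned 1.363 on the log2 scale in unstressed WT (2.57-fold), 0.84 in stressed WT (1.79-fold), 0.83 in KO (1.78-fold) and 1.13 in stressed KO (2.19-fold). Within a group the same library was at one end for most of the genes. KO library 3 was the lowest of its group for 31 of 34 genes (39.7% of all genes tested), and stressed KO library 1 for 29 (39.2%). Stressed WT library 3 was the highest of its group for 30 of 34 (32% of all). Unstressed WT library 3 was the lowest of its group for 32 of 34 (42.4% of all).

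Other genes of fibroblasts and collagens were looked at as lists. Among 55 further fibroblast and meningeal genes in the table, 50 could be tested, and 0 were called for stress in KO and 0 for genotype with stress. Their median log2 fold changes were 0.03 and 0.17. In stressed minus unstressed WT, 30 of 50 were called lower and 1 higher, where 12.1% and 9.71% of all genes tested were called lower and higher, with a median of -0.98. With library 3 as the only unstressed WT library, 0 of 50 were called and the median was -0.38. The list score over the 10 libraries had a Pearson correlation of 0.986 with that of the 34 genes (Spearman's rho 0.988), and of 0.978 without the 2 libraries farthest from the median. The list's 3 most abundant members did not share one order: Igfbp5, which binds insulin-like growth factors, was at 175.2, 227.4 and 96.4 CPM in unstressed WT and at 72.6 to 118.1 CPM in the other 9 libraries. Nov, a matricellular protein also made by cortical neurons, was at 92.8, 110.8 and 262.2 CPM in unstressed WT. Cdh11, a mesenchymal cadherin, was at 53.1, 72.0 and 93.2 CPM there, with the 2 lowest of the 12 libraries being libraries 1 and 2 for both genes.

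The other 35 collagen chains, of which 34 were tested, had 0 called in either tested comparison, with median log2 fold changes of 0.04 for stress in KO and 0.31 for genotype with stress. In stressed minus unstressed WT, 15 of 34 were called lower (12.1% of all genes tested), with a median of -0.97, and with library 3 alone 0 of 34 were called, with a median of -0.46. Their most abundant members were Col25a1, Col19a1 and Col12a1, chains known from neurons and other sources. Col25a1 was at 42.7, 60.9 and 75.9 CPM in unstressed WT and at 58.1 to 96.9 CPM in the other 9 libraries. The 30 genes of collagen modification and cross-linking, 29 of them tested, had 0 called for stress in KO and 1 lower for genotype with stress. This was P4ha1, a subunit of the collagen prolyl hydroxylase, at 53.4, 57.2 and 53.4 CPM in stressed WT and 42.4, 35.0 and 42.7 CPM in stressed KO. Without stress it was at 40.6, 40.3 and 39.8 CPM in WT and 46.1, 43.4 and 42.3 CPM in KO. The stressed WT libraries were thus the highest, and stressed KO lay near or below the unstressed groups. For genotype with stress its log2 fold change was -0.45 ± 0.08 (edgeR adjusted p 0.0483). The median log2 fold changes of the list were 0.05 and 0.06 in the 2 comparisons. P4hb, Ppib and Colgalt1, the most abundant of that list, lay within 97.5 to 113.8, 57.4 to 68.2 and 42.9 to 54.1 CPM over the 12 libraries. These are enzymes and folding factors that most secretory cells use.

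Markers of border macrophages varied with the set across libraries. Border macrophages, which live in the meninges and around vessels, had a list score of 0.78 and 1.05 in unstressed WT libraries 1 and 2, 0.10 in library 3 and -0.81 to 0.35 in the 10 libraries other than 1 and 2. Their 10 markers, 8 of them tested, summed to 39.9 and 52.6 CPM in libraries 1 and 2 and to 16.1 to 34.8 CPM in the 10 others, and the score correlated with that of the 34 genes at 0.895 over 10 libraries (rho 0.721), and at 0.859 without the 2 farthest. Mrc1, the mannose receptor of these macrophages, was at 8.26, 10.4 and 5.73 CPM in unstressed WT, 1.77, 2.95 and 3.82 CPM in stressed WT, 4.31, 5.57 and 2.49 CPM in KO, and 1.67, 4.44 and 4.42 CPM in stressed KO. Stab1, the most abundant marker, was at 20.3, 28.4 and 21.6 CPM in unstressed WT, so that library 3 lay above library 1. F13a1 was at 4.58, 5.73 and 2.95 CPM there. In the tested comparisons 0 of 8 were called.

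Markers of mural cells and endothelium, which line vessels of the meninges and of the cortex, correlated with the set at 0.795 and 0.781 over 10 libraries, and the 8 genes of the basement membrane at 0.686. Of the 12 mural, 14 endothelial and 8 basement membrane genes, 0 were called in the tested comparisons. The list scores of libraries 1 and 2 were 0.43 and 0.57 for mural cells and 0.21 and 0.39 for endothelium. Choroid plexus markers scored 0.95 and 1.49 in libraries 1 and 2, but Ttr, the defining transcript of that epithelium, lay between 0 and 0.49 CPM in all 12 libraries. Of that list Aqp1, a water channel also found elsewhere, was at 18.1, 23.6 and 2.65 CPM in unstressed WT.

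Olfactory bulb markers scored 3.27 and 3.39 in libraries 1 and 2 and 0.56 in library 3, with -2.09 to 0.56 over the 10 libraries other than 1 and 2. Over those 10 the score correlated with that of the 34 genes at 0.421. Ensheathing glia of the olfactory nerve scored 1.02 and 1.48 in libraries 1 and 2, and cortical excitatory neurons scored -0.74 and -0.37 there, below the range of 0.04 to 0.21 in the 10 others. The part of olfactory bulb, ensheathing glia or border tissue in the levels of the 34 genes in libraries 1 and 2 was not tested.

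**Figure D5:**
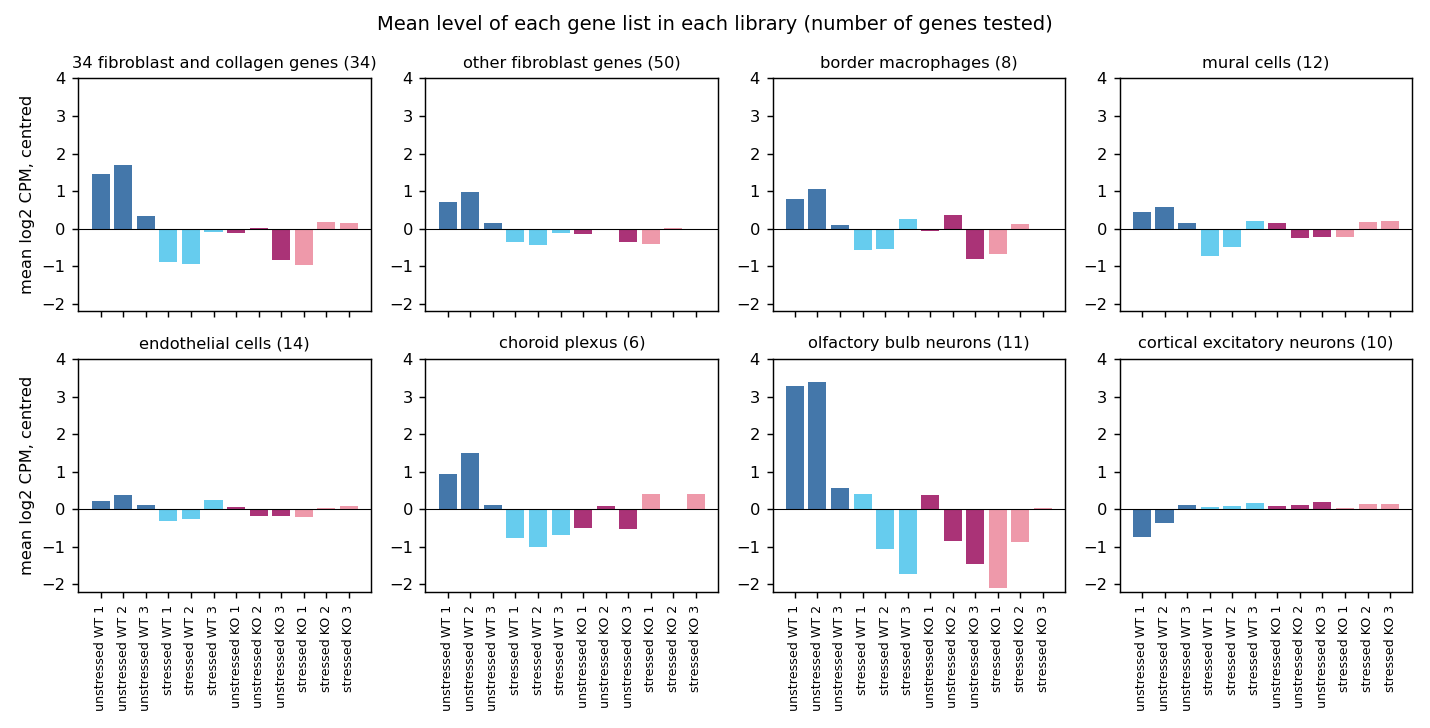
List scores (mean centred log2 CPM, vertical axis) in the 12 libraries for the 34 genes and 7 other lists. Unstressed WT libraries 1 and 2 lie highest for the 34 genes (1.45 and 1.71), border macrophages (0.78 and 1.05) and olfactory bulb neurons (3.27 and 3.39), and lowest for cortical excitatory neurons (-0.74 and -0.37).

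The genes whose levels were most like the set's score over the 10 libraries other than unstressed WT 1 and 2 were Colec12 (r 0.965), Vstm4 (0.962), Slc22a2 (0.956), Slc13a3 (0.952), Gem (0.952), Bmp6 (0.95), Slc6a12 (0.94), Des (0.933), Mpzl2 (0.928) and Uaca (0.928). They were picked for this likeness, which is a description. Over all 12 libraries the 10 most alike were Bmp6, Colec12, Vstm4, Mpzl2, Cgnl1, Dab2, Slc13a3, Slc22a2, Serpinf1 and Dennd2c. Bmp6, a bone morphogenetic protein, had a mean of 15.8 CPM in libraries 1 and 2, 5.53 CPM in library 3 and 1.94 to 5.54 CPM in the other 9. Slc13a3, a dicarboxylate transporter, had 45.3, 13.5 and 7.22 to 13.4 CPM in the same order. Serpinf1, a secreted serpin, had 18.6, 7.72 and 2.86 to 7.62 CPM. For these 3 genes library 3 lay at or near the top of the other groups rather than near libraries 1 and 2.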

How the data were processed

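The authors deposited 1 table with 12 columns, 1 for each library, of estimated counts by gene symbol, not normalized. Per the submitters' processing notes, build mm10 was used, and the tools named were RSEM 1.3.1, STAR 2.7.9a, DESeq2 1.36.0 and Trim Galore 0.6.6. Libraries were made with a kit that keeps strand, per the labels' protocols. For the counting, neither strand setting nor annotation is stated (not given in the sources used here). Pcolce, Ogn, Islr, Igf2, Slc6a20a and Alx4 overlap another gene in the annotation and are uncertain to that extent. Slc6a20a had decimals in 4 libraries and the other members in none.

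Counts were rounded. Of 24411 symbols 15199 passed filterByExpr of edgeR at a minimum count of 10 and a minimum total of 15. Libraries were scaled with TMM. CPM uses these factors, log2 CPM a prior count of 2, and RPKM the exonic length in GENCODE mouse release M21. A value of 3 counts corresponds to 0.0920 to 0.192 CPM. Such limits cover counting error only. The 4 contrasts came from 1 edgeR 4.0.16 quasi-likelihood fit of 4 group means in R 4.3.3, two-sided, with Benjamini-Hochberg adjustment over all genes tested, an adjusted p under 0.05 as the threshold and 8 residual degrees of freedom. DESeq2 1.42.0, its size factors, no filter, only 2 groups, a replicate block and left-out libraries were alternatives. The members and the other lists were chosen with earlier results of these data known. Named genes are all members, the 3 most abundant of each list described, any list gene called in a tested comparison, and the 10 most correlated genes. Other named markers were chosen after their values were seen. Replicates differed by more than sampling noise (chi-square per degree of freedom 5.07 to 71.7), so none was counted as a duplicate. The table held 0 other columns.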

Additional observations from a re-analysis of the deposited data

How the results depend on the processing

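Without unstressed WT libraries 1 and 2 the median log2 fold change of the 34 genes moved to -0.859 for stress in WT and to -0.573 for genotype without stress. Leaving out 1 library at a time gave -2.264 to -1.543 and -1.899 to -1.228. For stress in KO the number of members called was 0 under every alternative run, leave-one-out included (0 to 0). For genotype with stress it was 0 with the replicate block and 0 with only the 2 groups compared, and 0 to 1 over leave-one-out. The gene called there is Col6a2, with an edgeR adjusted p of 0.0891 with the block, 0.065 with only the 2 groups and 0.0235 to 0.188 over leave-one-out, and a DESeq2 adjusted p of 2.43e-05. Correlations between same-numbered libraries ran from -0.246 to 0.364, of which 4 of 18 exceeded 0.1. They included those among library 1 of unstressed WT, stressed WT and unstressed KO (0.3, 0.255 and 0.218). Libraries of different number were not correlated, so these values do not settle whether same-numbered libraries pair. In the tested comparisons the block changed no other member's call. For stress in WT it left 28 members called, against 29 in the main fit. With only the 2 groups compared, 0 of the 34 members were called for stress in WT. Of 442 single-gene values for stress in KO, 0 changed a call and 64 changed sign without being called. Of 408 for genotype with stress, 7 lost the call, all of Col6a2, and 12 uncalled values changed sign. Over all genes, stress in WT called 3322, against 0 without libraries 1 and 2, 1 with only the 2 groups, and 0 (without unstressed WT library 2, and without stressed WT library 2) to 5635 (without unstressed WT library 3) over leave-one-out. Genotype without stress called 3529, against 18 without libraries 1 and 2, 18 with only the 2 groups, and 234 to 5729 over leave-one-out. Stress in KO called 3, against 46 with DESeq2, and genotype with stress 38, against 299 with DESeq2 and 82 without unstressed WT libraries 1 and 2. With 3 libraries a group, and standard errors of up to 0.887 in the tested comparisons, changes of that size or larger could pass unseen. For genotype with stress, Col5a1 at 0.68 ± 0.20 (SE) was not called.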

Other observations

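Melanocytes, pigment cells that also live in the meninges, had an order of libraries unlike that of the fibroblast genes. Dct, an enzyme of melanin synthesis, was at 0.654, 3.19 and 0.729 CPM in unstressed WT, 1.21, 0.471 and 2.36 CPM in stressed WT, 0.458, 17.6 and 9.17 CPM in KO, and 1.99, 15.3 and 10.8 CPM in stressed KO. Its highest values were in 4 of the 6 KO libraries, and the groups of the 2 genotypes overlapped both without and with stress. KO minus WT gave log2 fold changes of 2.54 ± 1.04 (SE) in unstressed mice and 2.74 ± 1.07 in stressed mice, and neither passed the edgeR threshold (adjusted p 0.0928 and 0.306). With library 3 as the only unstressed WT library the first was 3.61 ± 1.71 (edgeR adjusted p 0.349). Of the 6 melanocyte genes, 6 had a log2 fold change above 0 in stressed KO minus stressed WT, with a median of 2.67. The groups did not overlap for 4 of 6, with KO higher (10.8% of all genes tested). At an unadjusted edgeR p under 0.05, 3 of 6 were higher (6.55% of all), and 0 of 6 were called. Without stress, 0 of 6 had groups that did not overlap. Over the 10 libraries other than unstressed WT 1 and 2, the melanocyte score correlated with that of the fibroblast genes at 0.353.

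Cdh1, the cadherin of arachnoid barrier cells, was at 2.17, 3.65 and 0.795 CPM in unstressed WT, 0.161, 0.0856 and 0.171 CPM in stressed WT, 0.114, 1.05 and 0.448 CPM in KO, and 0.279, 0.530 and 0.640 CPM in stressed KO. Library 3 of unstressed WT lay inside the range of KO for this gene.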
